A study of Mus musculus with 12 samples.

Results

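The 40 genes described here are a fixed set of cell cycle genes, taken by name from the 21001 genes that the expression tables listed. They comprised 24 genes whose products act in G2 phase or mitosis, 15 that act at the entry into S phase or in DNA replication, and the G1 cyclin gene Ccnd1. All 40 passed the expression filter, which kept 12314 genes. RNA sequencing covered 12 libraries of GFP-labelled BMSCs (labelled as bone marrow stem cells, mesenchymal per the series title, with GFP a green fluorescent protein) from C57BL/6 mice whose genotype is labelled "wide type", in 4 groups of 3 libraries. The NC group held the cells in primary culture, with no injection into a mouse. The HOMING group held cells recovered from the marrow of mice that had been given GFP-BMSCs alone under the skin. The BM group held cells recovered from the marrow of mice given GFP-BMSCs together with RFP-LLC cells, the Lewis lung carcinoma line carrying a red fluorescent protein. The TUMOR group held cells recovered from the inoculation site of such co-injected mice. The labels give no age, sampling time, GFP driver or sort gate, and they do not say whether the 3 libraries of a group came from separate animals or cultures, so the p-values below measure only the spread between these samples, which may be technical.

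A cycling cell passes from G1, where D-type and then E-type cyclins with their kinases release E2F transcription factors from the retinoblastoma protein family, into S phase, where the MCM helicase loaded in G1 is activated and DNA is copied. Transcripts of the S-phase machinery peak around the G1 to S transition, and transcripts of the mitotic machinery accumulate later, in G2 and mitosis. Mesenchymal stromal cells proliferate in culture, and in adult marrow they are mostly quiescent. In bulk RNA, fewer cells of one kind and less RNA per cell cannot be told apart, so levels below are averages over all the cells sampled.

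Sequencing depth was even, with 43232145 to 46166519 expected counts in each library, and the smallest count of a cell cycle gene in any library was 599. Levels are given as FPKM, which corrects fragment numbers for how long a transcript is and how deeply a library was read, and ran from 2.55 to 301 FPKM over the 40 genes and 12 libraries. Of the 16 stromal identity markers checked, 12 or 13 reached 1 FPKM in all 3 libraries of each group, and Thy1 (0.01 to 0.68 FPKM) and Nt5e (0.31 to 0.79 FPKM), which are defining markers of these cells, were near 0 in all 12. The HOMING libraries carried blood cell transcripts: 14 neutrophil markers summed to 2674.5 to 3972.9 FPKM, with 13 of them at 1 FPKM or more in all 3 libraries. The sum was 347.8 to 444.8 FPKM in NC, 412.1 to 436.4 in BM and 46.1 to 48.6 in TUMOR, mostly Lcn2 in each. BM carried further neutrophil transcripts: 6 of the 14 reached 1 FPKM in all 3 BM libraries, against 1 in NC and 1 in TUMOR. S100a8 stood at 19.3 to 24.8 FPKM in BM and 0.35 to 0.76 in NC. The sum of 11 erythroid markers was 2144.3 to 3508.0 FPKM in HOMING and 31.6 to 49.1 FPKM in the other groups, where it was mostly Tfrc (30.7 to 45.8 FPKM). That of 11 monocyte and macrophage markers was 485.1 to 763.6 FPKM in HOMING, 70.3 to 71.7 in BM, 26.8 to 28.3 in TUMOR and 15.1 to 20.4 in NC. The pan-leukocyte gene Ptprc stood at 5.94, 5.94 and 10.61 FPKM in HOMING, at 0.30 to 0.31 in BM, and at 0 to 0.01 in NC and TUMOR, and the 9 lymphoid markers summed to at most 2.97 FPKM in any library. Epithelial markers (6 genes) summed to 69.5 to 115.0 FPKM in TUMOR, mostly Krt8 (93.8, 48.1 and 51.9) and Krt19 (21.0, 21.3 and 22.4), against 1.92 to 6.95 FPKM elsewhere. The rest of the list, Krt18, Epcam, Cdh1 and Sftpc, stood at or near 0 in every library (at most 0.12 FPKM). All pairs of libraries within a group differed beyond counting noise, and 1 library stood apart in each of the 4 groups. The chi-square per degree of freedom was 34.7 and 30.4 between TUMOR replicate 1 and the others, against 3.19 between those 2. It was 53.1 and 31.2 for NC replicate 3, against 12.4, and 16.1 and 18.9 for HOMING replicate 3, against 4.26. For BM replicate 3 it was lower, at 8.32 and 8.41, against 3.77. The part of blood cells in the results on HOMING and BM, and of any other cells in those on TUMOR, was not tested.

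Cells recovered from mice carried more mitotic transcripts than cultured cells, whereas S-phase transcripts moved in both directions, as did all genes tested. Of the 24 mitotic genes, 20 rose in HOMING against NC, 21 in BM against NC and 20 in TUMOR against NC, and 0 fell. The background was high: 35.4% of all 12314 genes rose in HOMING, 34.4% in BM and 37.2% in TUMOR, at an adjusted p under 0.05 in edgeR's quasi-likelihood test. Without NC replicate 1 the counts of risen mitotic genes were 20, 21 and 20 and those of fallen ones 1, 2 and 1, and without HOMING replicate 3, 20 rose and 0 fell in HOMING. Of the 15 S-phase genes, 6 rose and 3 fell in HOMING, 7 rose and 1 fell in BM, and 8 rose and 3 fell in TUMOR, beside 34.6%, 32.2% and 36.5% of all genes that fell. The share of S-phase genes that rose in HOMING was near that of all genes. These S-phase counts moved with single libraries: 10 rose in HOMING without NC replicate 1, 5 fell in BM without NC replicate 3, and 5 rose in TUMOR without TUMOR replicate 2. In TUMOR 5 also rose when the compared groups were fitted alone or with no filter. With scaling by library size alone, 9 S-phase genes rose and 2 fell in HOMING, 8 and 1 in BM, and 10 and 2 in TUMOR. Under that scaling 21, 22 and 23 mitotic genes rose and 0 fell, beside 43.9%, 41.1% and 44.9% of all genes that rose. Counted in either direction, 30, 30 and 32 of the 40 genes passed, close to the 70.0%, 66.6% and 73.6% of all genes, so the number of changed genes as such did not set the cell cycle genes apart. The 3 comparisons share the NC libraries, and their values are set side by side below.

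Fitted median log2 changes against NC were 0.67 in HOMING, 0.55 in BM and 0.70 in TUMOR over the 24 mitotic genes, and 0.11, 0.13 and 0.16 over the 15 S-phase genes, beside 0.00 to 0.02 over all genes tested. Without 1 library at a time the S-phase medians ran from 0.03 (without NC replicate 3) to 0.18, from 0.08 (without NC replicate 2) to 0.17 and from 0.08 (without NC replicate 3) to 0.21. In single libraries the same contrast was seen on the FPKM scale, which lacks the scaling between libraries used in the fit. Relative to the mean of the NC libraries, the median log2 ratio of the mitotic genes was 0.77 to 0.79 in the HOMING libraries, 0.63 to 0.64 in the BM libraries and 0.81 to 0.84 in the TUMOR libraries. For the S-phase genes it was 0.22 to 0.24, 0.17 to 0.21 and 0.25 to 0.28. The mitotic median exceeded the S-phase median by 0.42 to 0.59 in each of the 9 recovered libraries, which lay close together within a group. The 3 cultured libraries were more spread, and along another axis: the mitotic and S-phase medians were -0.15 and 0.13 in NC replicate 1, 0.02 and -0.01 in NC replicate 2, and 0.09 and -0.18 in NC replicate 3. Of the 24 mitotic genes 23 were lower in NC replicate 1 than in NC replicate 3, and of the 15 S-phase genes 13 were higher there. The largest difference of the medians in a cultured library, 0.27 in NC replicate 3, stayed below the smallest in a recovered library, 0.42. Among the members of a class the spread was wide, from -0.18 (Cdc25c) to 1.96 (Aurkb) for the mitotic genes of HOMING and from -0.83 (Mcm2) to 0.92 (Ccne1) for its S-phase genes.

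**Figure D1:**
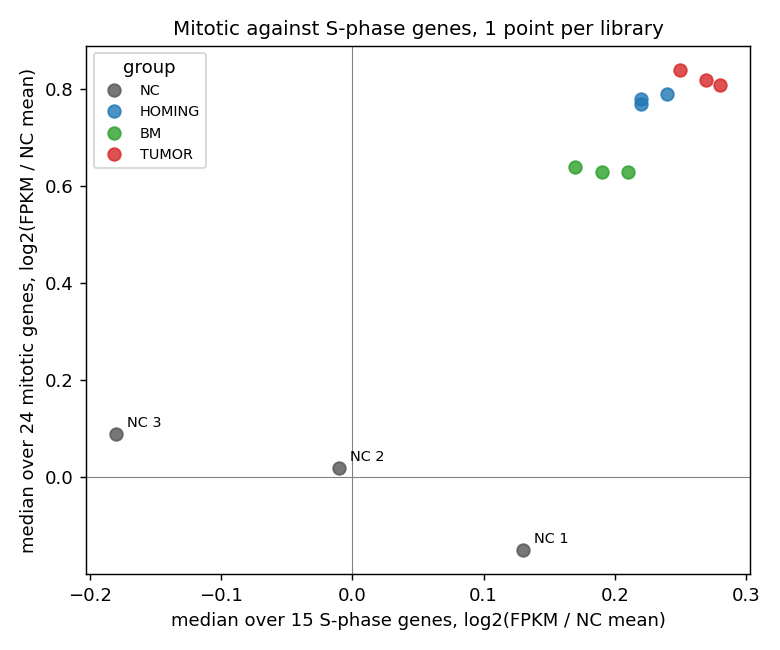
Median log2 ratio to the mean NC level over the 24 mitotic genes (vertical axis) and over the 15 S-phase genes (horizontal axis), from FPKM, with 1 point for each of the 12 libraries coloured by group. The 9 recovered libraries sit at mitotic medians of 0.63 to 0.84 and S-phase medians of 0.17 to 0.28, while the 3 NC libraries run from high S phase and low mitotic (NC 1) to low S phase and higher mitotic (NC 3).

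The promoters of the 2 classes held different short elements, which the choice of genes did not use. RefSeq windows of 300 bases, from 250 before to 50 after the start site on build GRCm38.p6, matched 31 of the 40 genes (18 mitotic and 13 S phase), and those without a window were Mcm4, Kif20a, Tpx2, Ccnd1, Ccne2, Cdc25c, Aurkb, Foxm1 and Ccna2. The search covered 3 short elements known from cell cycle promoters, on both strands: the CHR, the cell cycle genes homology region bound by the MuvB complexes (TTTGAA or TTCGAA), the E2F site (TTTCCCGC, TTTGGCGC, TTTCGCGC or TTTGCCGC) and the CCAAT box bound by NF-Y. The 31 genes had 32 windows, as Mcm7 had more than 1, and a gene was counted when any of its windows matched. CHR letters were present in 14 of 18 mitotic genes (77.8%) and 2 of 13 S-phase genes (15.4%), beside 21.7% of all 27025 genes with a window. E2F letters were present in 1 of 18 mitotic (5.56%) and 6 of 13 S-phase genes (46.2%), beside 2.60% of all genes, and CCAAT in 16 of 18 (88.9%) and 8 of 13 (61.5%), beside 41.1%. In 13 of the 14 mitotic genes the CHR began within 60 bases before to 50 bases after the start site, a range set after the positions were seen, and all 14 also held a CCAAT box. Overlapping matches were each counted. Matches of different elements overlapped in 1 window, of Mcm7, and matches of the same element in those of Mcm5 and Mcm6 (E2F) and Ube2c (CCAAT). A match is a description of letters and not a site at which binding was measured.

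The windows below are shown because their genes differed between groups in the results below and hold these elements in different arrangements: 3 mitotic genes (Mki67, chr7:135716330-135716629; Ccnb2, chr9:70421505-70421804; Cenpf, chr1:189688037-189688336, all on the minus strand) and 3 S-phase genes (Mcm6, chr1:128359656-128359955, minus strand; Cdt1, chr8:122567765-122568064, plus strand; Mcm2, chr6:88898731-88899030, minus strand). Each is written 5′ to 3′ on the strand of its gene, with CHR, E2F and CCAAT letters on either strand in capitals.
Mki67: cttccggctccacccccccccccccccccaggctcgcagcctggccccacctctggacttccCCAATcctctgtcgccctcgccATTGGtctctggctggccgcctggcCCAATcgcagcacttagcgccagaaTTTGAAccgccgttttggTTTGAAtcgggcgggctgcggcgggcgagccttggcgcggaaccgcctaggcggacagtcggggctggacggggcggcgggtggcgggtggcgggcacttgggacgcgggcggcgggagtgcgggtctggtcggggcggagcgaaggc
Ccnb2: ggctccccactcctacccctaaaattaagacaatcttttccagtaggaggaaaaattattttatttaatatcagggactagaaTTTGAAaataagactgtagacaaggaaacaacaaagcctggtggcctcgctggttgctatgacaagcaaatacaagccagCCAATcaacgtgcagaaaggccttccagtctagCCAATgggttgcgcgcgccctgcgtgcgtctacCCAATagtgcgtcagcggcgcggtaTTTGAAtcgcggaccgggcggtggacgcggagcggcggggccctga
Cenpf: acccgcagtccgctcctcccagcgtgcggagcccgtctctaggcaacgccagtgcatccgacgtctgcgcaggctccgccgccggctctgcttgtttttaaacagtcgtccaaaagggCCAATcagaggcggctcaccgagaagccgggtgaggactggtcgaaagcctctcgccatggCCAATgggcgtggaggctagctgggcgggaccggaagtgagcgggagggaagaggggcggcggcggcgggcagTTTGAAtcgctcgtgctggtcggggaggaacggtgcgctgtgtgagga
Mcm6: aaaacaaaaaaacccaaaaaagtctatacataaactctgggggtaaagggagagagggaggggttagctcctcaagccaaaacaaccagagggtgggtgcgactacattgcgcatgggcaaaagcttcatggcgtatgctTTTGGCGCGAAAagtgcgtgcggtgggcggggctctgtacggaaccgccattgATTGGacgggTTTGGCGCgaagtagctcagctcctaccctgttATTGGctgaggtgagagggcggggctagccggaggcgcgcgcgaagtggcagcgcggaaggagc
Cdt1: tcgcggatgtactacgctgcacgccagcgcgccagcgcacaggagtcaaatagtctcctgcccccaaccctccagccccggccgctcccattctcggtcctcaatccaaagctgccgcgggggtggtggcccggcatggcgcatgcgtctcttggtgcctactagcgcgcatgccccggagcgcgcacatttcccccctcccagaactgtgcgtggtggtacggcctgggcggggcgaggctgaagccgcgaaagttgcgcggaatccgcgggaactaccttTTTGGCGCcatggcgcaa
Mcm2: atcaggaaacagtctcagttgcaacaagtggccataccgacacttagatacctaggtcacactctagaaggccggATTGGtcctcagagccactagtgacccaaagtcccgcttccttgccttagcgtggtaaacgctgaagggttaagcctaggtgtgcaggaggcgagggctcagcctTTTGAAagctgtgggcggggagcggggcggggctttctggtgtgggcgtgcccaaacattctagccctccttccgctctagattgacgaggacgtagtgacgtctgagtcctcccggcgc

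In the Ccnb2 and Cenpf windows a CHR begins 5 and 3 bases after the start site, with CCAAT boxes upstream of it, while in the Mki67 window both CHR matches lie further upstream, at 116 and 98 bases before the start site. The Mcm6 window holds 3 E2F matches, of which the upstream pair overlaps, and the Cdt1 window 1, and neither holds a CHR. Mcm2, which fell in all recovered groups, is 1 of the 2 S-phase genes with CHR letters, 70 bases before its start site, and its window holds no E2F match of the letters searched.

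Among the regulators that drive and carry out mitosis, the aurora kinase gene Aurkb, whose product corrects chromosome attachments and is needed for cytokinesis, had the largest change in all 3 comparisons with culture. Its level was 13.8, 13.2 and 14.04 FPKM in NC and 57.2, 57.3 and 58.6 in HOMING. In BM it stood at 48.1, 45.2 and 45.7, and in TUMOR at 70.2, 63.1 and 62.7. The 9 recovered libraries were all above the 3 cultured ones, and the 4 groups did not overlap. Log2 changes against NC were 1.96 ± 0.06 (adjusted p = 5.67e-11) in HOMING, 1.68 ± 0.06 (adjusted p = 1.42e-09) in BM and 2.13 ± 0.06 (adjusted p = 3.41e-11) in TUMOR, each with its SE and the adjusted p of edgeR's quasi-likelihood test over 12314 genes, as for all changes below. The related kinase gene Aurka, which acts at spindle poles, rose by less (0.31 ± 0.08, 0.48 ± 0.08 and 0.38 ± 0.08). Smaller rises were also seen for Birc5, the partner of Aurkb in the chromosomal passenger complex (0.47 ± 0.07, 0.48 ± 0.07 and 0.51 ± 0.07) and for the polo-like kinase gene Plk1 (0.71 ± 0.07, 0.44 ± 0.07 and 0.67 ± 0.07). Foxm1, a transcription factor of G2 and mitotic genes, rose by 0.57 ± 0.05, 0.46 ± 0.05 and 0.40 ± 0.05.

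Mki67, which encodes the Ki-67 protein that coats mitotic chromosomes and marks cycling cells, stood at 22.7, 23.6 and 23.3 FPKM in NC. It stood at 69.6, 72.3 and 76.2 FPKM in HOMING, 45.3, 49.01 and 44.6 in BM and 88.96, 87.3 and 90.95 in TUMOR, again with no overlap between any groups. Its log2 changes against NC were 1.54 ± 0.05 (adjusted p = 1.39e-10), 0.92 ± 0.05 (adjusted p = 2.69e-08) and 1.82 ± 0.05 (adjusted p = 4.45e-11). Top2a, the topoisomerase that untangles sister chromatids, rose by 0.59 ± 0.05 in HOMING, 0.71 ± 0.05 in BM and 0.74 ± 0.05 in TUMOR.

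The mitotic cyclins did not move as 1 group. Ccnb2 stood at 13.03, 14.8 and 17.1 FPKM in NC and 32.5, 29.6 and 30.04 in HOMING. The BM libraries gave 27.03, 28.4 and 28.6, and the TUMOR libraries 71.4, 53.7 and 55.5. All recovered libraries exceeded the cultured ones, and the TUMOR libraries exceeded all others, TUMOR replicate 1 by the most. Its changes were 0.93 ± 0.12 (adjusted p = 1.59e-05), 0.82 ± 0.12 (adjusted p = 6.13e-05) and 1.88 ± 0.12 (adjusted p = 2.39e-08). Ccna2, the A-type cyclin of S phase and G2, stood at 49.7, 55.3 and 60.7 FPKM in NC and 109, 114 and 112 in HOMING. Its BM levels were 108, 107 and 101.5, and its TUMOR levels 125, 117 and 119. All recovered libraries lay above NC, with changes of 0.91 ± 0.07 (adjusted p = 1.65e-07), 0.85 ± 0.07 (adjusted p = 6.06e-07) and 1.00 ± 0.07 (adjusted p = 6.53e-08). Ccnb1, the other main B-type cyclin, passed in BM alone of the 3 comparisons, with changes of -0.07 ± 0.08 (adjusted p = 0.448) in HOMING, 0.32 ± 0.08 (adjusted p = 0.00243) in BM and 0.13 ± 0.08 (adjusted p = 0.145) in TUMOR. Their kinase partner Cdk1 rose by 0.27 ± 0.05, 0.22 ± 0.05 and 0.22 ± 0.05, and Cdc25c, a phosphatase that activates it, had values of -0.18 ± 0.08, -0.04 ± 0.08 and -0.17 ± 0.08 that passed in 0 of the 3 comparisons (adjusted p = 0.0645, 0.699 and 0.0716).

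Genes of the centromere and of the spindle checkpoint rose in all 3 recovered groups. Cenpf, a large kinetochore protein, stood at 2.55, 3.04 and 3.80 FPKM in NC and 8.30, 8.70 and 8.58 in HOMING. BM libraries had 4.76, 5.19 and 5.32, and TUMOR libraries 15.5, 13.4 and 13.5. The groups were fully separated in the order NC, BM, HOMING and TUMOR, and its changes were 1.33 ± 0.12 (adjusted p = 6.29e-07), 0.62 ± 0.12 (adjusted p = 0.000634) and 2.05 ± 0.12 (adjusted p = 1.34e-08). The centromeric histone gene Cenpa changed by 0.93 ± 0.13, 0.96 ± 0.13 and 1.39 ± 0.13, and the kinetochore motor gene Cenpe by 1.18 ± 0.14, 0.84 ± 0.14 and 1.37 ± 0.14. Bub1, a kinase of the spindle checkpoint, stood at 11.7, 13.3 and 13.3 FPKM in NC and 24.1, 25.1 and 23.9 in HOMING. Values were 24.4, 23.3 and 23.3 in BM and 31.5, 30.4 and 29.8 in TUMOR. All recovered libraries were above the cultured ones, with changes of 0.82 ± 0.06 (adjusted p = 6.77e-08), 0.81 ± 0.06 (adjusted p = 1.92e-07) and 1.14 ± 0.06 (adjusted p = 4.02e-09). The checkpoint genes Bub1b (0.67 ± 0.07, 0.78 ± 0.07 and 0.71 ± 0.07) and Mad2l1 (0.53 ± 0.05, 0.51 ± 0.05 and 0.69 ± 0.05) rose as well.

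Of the spindle motor genes, Kif11, which pushes the spindle poles apart, stood at 14.01, 16.7 and 16.04 FPKM in NC and 26.4, 27.4 and 26.98 in HOMING. In BM it stood at 31.2, 28.8 and 30.1, and in TUMOR at 27.2, 27.9 and 27.4. It rose by 0.68 ± 0.06, 0.86 ± 0.06 (adjusted p = 1.97e-07) and 0.69 ± 0.06 in HOMING, BM and TUMOR, with no overlap between recovered and cultured libraries. The cytokinesis motors Kif20a (0.85 ± 0.08, 0.55 ± 0.08 and 0.78 ± 0.08) and Kif23 (0.86 ± 0.11, 0.55 ± 0.11 and 0.91 ± 0.11) rose too. Tpx2, a spindle assembly factor that activates Aurka, had a change of 0.01 ± 0.05 (adjusted p = 0.84) in HOMING and rose by 0.27 ± 0.05 in BM and 0.18 ± 0.05 in TUMOR, 2 calls that were lost when its most abundant transcript alone was tested (adjusted p = 0.312 and 0.0868). That transcript held 29.4% of the gene's FPKM in NC, 26.3% in BM and 29.2% in TUMOR.

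Ube2c and Cdc20, which act with the anaphase-promoting complex, passed in 1 and 0 of the 3 comparisons with NC. Ube2c, the ubiquitin-conjugating enzyme of the anaphase-promoting complex, was the most abundant mitotic gene, at 178, 210.0 and 202 FPKM in NC and 239, 243 and 243 in HOMING. The BM libraries gave 213, 219 and 224, and the TUMOR libraries 227, 229 and 225. Its changes were 0.19 ± 0.06 (adjusted p = 0.00975) in HOMING, which passed, and 0.07 ± 0.06 (adjusted p = 0.274) and 0.08 ± 0.06 (adjusted p = 0.207) in BM and TUMOR, which did not. Cdc20, the activator of that complex, had changes of -0.06 ± 0.06, -0.12 ± 0.06 and 0.02 ± 0.06 that passed in 0 of the 3 comparisons (adjusted p = 0.426, 0.117 and 0.837). A change of at least 2-fold was reached by 4 mitotic genes in HOMING (Aurkb, Mki67, Cenpf and Cenpe), by Aurkb alone in BM and by 7 in TUMOR (Aurkb, Cenpf, Ccnb2, Mki67, Cenpa, Cenpe and Bub1). The shares of all genes that rose by as much were 9.64%, 7.93% and 9.75%. In either direction 4, 2 and 9 of the 40 genes reached it, beside 14.3%, 11.5% and 16.4% of all genes.

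**Figure D2:**
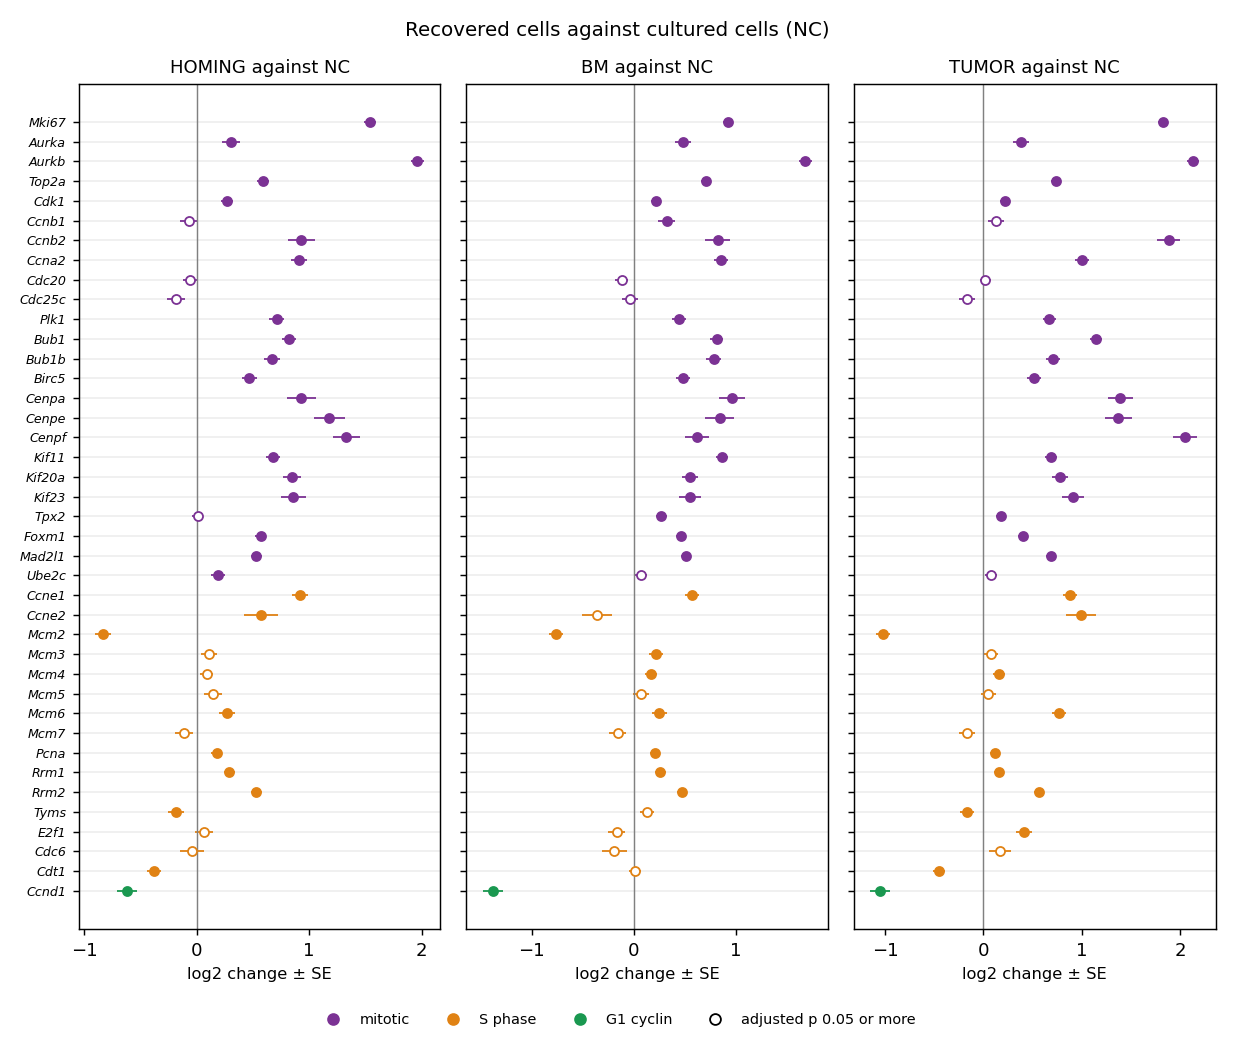
Fitted log2 changes of the 40 cell cycle genes in HOMING, BM and TUMOR against NC (horizontal axes, log2; bars are SE), with 1 row per gene in the same order in each panel, coloured by class; open circles have an adjusted p of 0.05 or more. Filled mitotic points lie to the right of 0 in all 3 panels, S-phase points lie on both sides of it, and Ccnd1 lies to the left.

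S-phase genes moved in both directions, as did all genes tested. The E-type cyclin gene Ccne1, which with its kinase drives entry into S phase, stood at 6.91, 6.73 and 7.76 FPKM in NC and 14.9, 14.3 and 14.5 in HOMING. Its BM levels were 11.5, 10.8 and 11.2, and its TUMOR levels 14.7, 13.5 and 14.8. Every recovered library exceeded every cultured one, and the gene rose by 0.92 ± 0.07 (adjusted p = 1.13e-07), 0.57 ± 0.07 (adjusted p = 1.52e-05) and 0.88 ± 0.07 (adjusted p = 1.53e-07). Its paralog Ccne2 stood at 9.60, 7.08 and 5.09 FPKM in NC and 11.2, 11.9 and 11.8 in HOMING. BM libraries had 5.96, 5.87 and 6.03, and TUMOR libraries 16.6, 15.4 and 14.96. The NC libraries were widely spread for this gene and overlapped BM, with changes of 0.57 ± 0.15 (adjusted p = 0.00436) in HOMING, -0.36 ± 0.15 (adjusted p = 0.0521) in BM and 0.99 ± 0.15 (adjusted p = 5.64e-05) in TUMOR. E2f1, a transcription factor that drives S-phase genes, passed in TUMOR (0.41 ± 0.08, adjusted p = 0.000306) and not in HOMING (0.07 ± 0.08, adjusted p = 0.427) or BM (-0.17 ± 0.08, adjusted p = 0.0601).

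Of the genes that load and form the replicative helicase, Mcm2 fell. It stood at 206, 189 and 157 FPKM in NC and 114, 111 and 111 in HOMING. Values were 117, 117 and 111 in BM and 91.4, 103 and 102 in TUMOR. All recovered libraries lay below the cultured ones. Its changes were -0.83 ± 0.07 (adjusted p = 5.16e-07), -0.76 ± 0.07 (adjusted p = 2.2e-06) and -1.02 ± 0.07 (adjusted p = 7.55e-08), the last past 2-fold. Mcm6, a subunit of the same complex, moved the other way and stood at 56.7, 51.4 and 48.3 FPKM in NC and 67.4, 67.9 and 68.3 in HOMING. In BM it stood at 67.2, 65.1 and 64.4, and in TUMOR at 108, 91.3 and 89.97. All recovered libraries lay above NC, with changes of 0.27 ± 0.07 (adjusted p = 0.0046), 0.25 ± 0.07 (adjusted p = 0.00806) and 0.77 ± 0.07 (adjusted p = 7.57e-07). The remaining subunits lay between: Mcm3 rose in BM (0.22 ± 0.07), Mcm4 rose in BM (0.17 ± 0.06) and TUMOR (0.16 ± 0.06), and Mcm5 and Mcm7 passed in 0 of the 3 comparisons, with values of 0.05 to 0.15 and -0.17 to -0.11. The licensing factor gene Cdt1 stood at 123, 114 and 103 FPKM in NC and 96.5, 90.95 and 93.5 in HOMING. The BM libraries gave 118, 127 and 117, and the TUMOR libraries 86.7, 90.98 and 93.3. It fell in HOMING (-0.38 ± 0.06, adjusted p = 5.76e-05) and TUMOR (-0.45 ± 0.06, adjusted p = 1.28e-05), whose libraries lay below the NC range, while the BM libraries overlapped NC (0.01 ± 0.06, adjusted p = 0.87). Cdc6, which loads the helicase together with Cdt1, passed in 0 of the 3 comparisons (-0.04 ± 0.11, -0.19 ± 0.12 and 0.17 ± 0.11).

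Rrm1, Rrm2, Tyms and Pcna supply and carry out DNA synthesis. Rrm2, the regulated subunit of ribonucleotide reductase, stood at 103, 98.7 and 99.7 FPKM in NC and 160.3, 157 and 153 in HOMING. Its BM levels were 145, 146 and 151, and its TUMOR levels 175, 154 and 154. It rose in each recovered group with no overlap with NC, by 0.53 ± 0.05 (adjusted p = 2.17e-06), 0.47 ± 0.05 (adjusted p = 9.81e-06) and 0.56 ± 0.05 (adjusted p = 1.16e-06). Its partner subunit gene Rrm1 stood at 92.5, 85.2 and 79.4 FPKM in NC and 112, 113 and 114 in HOMING. BM libraries had 112, 109 and 105, and TUMOR libraries 98.5, 108 and 106. All recovered libraries were above the cultured ones, with changes of 0.29 ± 0.05, 0.26 ± 0.05 (adjusted p = 0.000617) and 0.16 ± 0.05. Pcna, the sliding clamp of DNA polymerase and the most abundant S-phase gene, stood at 228, 198 and 200.1 FPKM in NC and 258, 259 and 248 in HOMING. Values were 253, 255 and 257 in BM and 253, 248 and 243 in TUMOR. The recovered libraries lay above the NC range, with changes of 0.18 ± 0.05 (adjusted p = 0.00625), 0.21 ± 0.05 (adjusted p = 0.002) and 0.12 ± 0.05 (adjusted p = 0.0363). Tyms, the thymidylate synthase gene, had calls of -0.18 ± 0.07 (adjusted p = 0.0307) in HOMING and -0.17 ± 0.07 (adjusted p = 0.0312) in TUMOR although its libraries overlapped those of NC, and 0.13 ± 0.07 (adjusted p = 0.105) in BM. With scaling by library size alone, which moved the median of all genes by 0.12 in HOMING, 0.10 in BM and 0.13 in TUMOR, the values of Tyms were -0.06 (adjusted p = 0.384) in HOMING and -0.05 (adjusted p = 0.492) in TUMOR. Leaving out 1 library also ended several small calls: Tyms in HOMING without HOMING replicate 3 or NC replicate 3 (adjusted p = 0.101 and 0.13), Tyms in TUMOR without any of 3 libraries (NC 3, TUMOR 2 or TUMOR 3; 0.0625 to 0.136), and Mcm4 in BM without BM 1 or NC 3 (0.0837 and 0.0586). In TUMOR the same held for Mcm4 without any of 4 libraries (NC 3, TUMOR 1, 2 or 3; adjusted p = 0.0596 to 0.109), Pcna without any of 4 (NC 2, NC 3, TUMOR 1 or 2; 0.068 to 0.16) and Rrm1 without TUMOR 2 (0.0515).

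Ccnd1, the D-type cyclin that links growth signals to the G1 kinases, was the most abundant of the 40 genes in culture and fell in every recovered group. It stood at 238, 262 and 301 FPKM in NC and 194, 194 and 177 in HOMING. In BM it stood at 109, 108 and 110.2, and in TUMOR at 121, 150.4 and 151. No 2 groups overlapped. Its changes against NC were -0.62 ± 0.09 (adjusted p = 7.45e-05) in HOMING, -1.38 ± 0.10 (adjusted p = 1.53e-07) in BM and -1.05 ± 0.10 (adjusted p = 5.57e-07) in TUMOR. The order of its levels, NC, HOMING, TUMOR and BM, was not that of the mitotic genes.

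**Figure D3:**
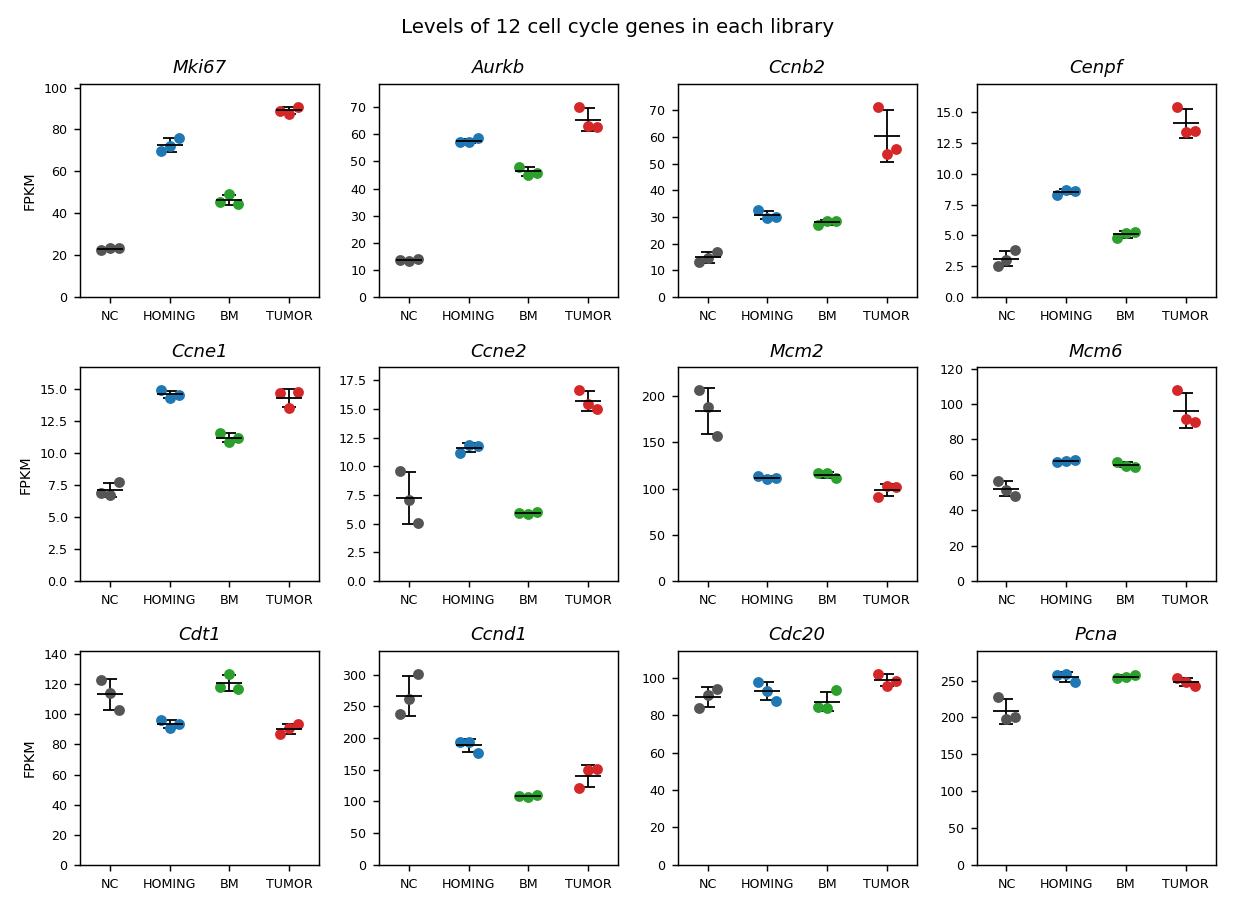
FPKM (vertical axes, linear, from 0) of 12 cell cycle genes in each of the 12 libraries, 1 panel per gene and 1 point per library, with the mean and SD of each group of 3; points of a group are drawn side by side and have no order. Mki67, Aurkb, Ccnb2 and Cenpf are lowest in NC, and Mcm2 and Ccnd1 are highest in NC. For Cdc20 the HOMING libraries overlap those of every other group, NC and BM overlap, and TUMOR lies above NC and BM.

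The comparison of BM with HOMING asked how marrow-recovered cells differed when tumour cells had been injected with them. The blood cell transcripts of both groups are given above. This comparison held fewer and smaller differences: 16 of the 40 genes passed, beside 58.1% of all genes, and 0 of them changed 2-fold, beside 10.4%. Of the mitotic genes 3 rose and 7 fell in BM, and of the S-phase genes 2 rose and 3 fell, beside 29.3% and 28.8% of all genes, with median log2 differences of -0.06 and -0.03. The share of mitotic genes that fell was near that of all genes, so this count did not set them apart. With no filter 4 mitotic genes rose and 5 fell. With the library values given above, Mki67 fell by 0.62 on the log2 scale (SE 0.05, adjusted p = 5.09e-07), Cenpf by 0.71 (SE 0.12, adjusted p = 0.000223) and Aurkb by 0.29 (SE 0.06, adjusted p = 0.000685). In each case every BM library lay below every HOMING library. Plk1 (-0.27 ± 0.06), Kif20a (-0.30 ± 0.08), Kif23 (-0.31 ± 0.11) and Cenpe (-0.34 ± 0.14) were lower in BM too. Ccnb1 rose, from 50.6, 50.1 and 48.5 FPKM in HOMING to 66.1, 61.2 and 63.6 in BM (0.38 ± 0.08, adjusted p = 0.000811), and Kif11 by 0.19 ± 0.06. Tpx2 stood at 62.1, 64.3 and 60.6 FPKM in HOMING and 73.2, 73.4 and 72.5 in BM, a rise of 0.26 ± 0.05 (adjusted p = 0.000684) whose sign turned to -0.03 (adjusted p = 0.793) when its most abundant transcript alone was tested. That transcript held only 32.0% of the gene's FPKM in HOMING and 26.3% in BM.

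Both E-type cyclins were lower in BM than in HOMING, Ccne2 with a change of -0.93 ± 0.15 (adjusted p = 0.000198) and Ccne1 with -0.35 ± 0.07 (adjusted p = 0.000696), and the libraries of the 2 groups did not overlap for either gene. E2f1 was lower by the same test (-0.24 ± 0.08). Cdt1 (0.39 ± 0.06, adjusted p = 7.71e-05) and Tyms, at 21.5, 20.9 and 23.1 FPKM in BM against 18.2, 18.5 and 17.4 in HOMING (0.31 ± 0.07, adjusted p = 0.00172), were higher in BM. Ccnd1 fell further, by 0.76 (SE 0.09, adjusted p = 2.19e-05). Pcna (0.04 ± 0.05) and Ube2c (-0.12 ± 0.06), the most abundant of their classes, did not pass. Single libraries decided 3 mitotic calls: Cenpe lost its call without any 1 of the 6 libraries (adjusted p = 0.0765 to 0.147), Kif23 without any except BM replicate 1 (0.057 to 0.108), and Kif11 without BM replicate 1 or HOMING replicate 1 (0.0836 and 0.0612). The number that passed was 25 when only these 2 groups were fitted.

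TUMOR against BM compared the 2 sites of co-injected mice, and there 22 of the 40 genes passed, beside 69.6% of all genes. Of the mitotic genes 11 rose and 2 fell, and of the S-phase genes 5 rose and 3 fell, beside 35.4% and 34.2% of all genes, with medians of 0.14 and -0.02. The share of S-phase genes that rose was near that of all genes. Mki67 (0.90 ± 0.05, adjusted p = 1.49e-08), Cenpf (1.43 ± 0.12, adjusted p = 4.19e-07), Ccnb2 (1.06 ± 0.12, adjusted p = 4.44e-06) and Aurkb (0.46 ± 0.06, adjusted p = 1.09e-05) rose, and all 3 TUMOR libraries lay above all 3 BM libraries for each of them. Bub1 (0.33 ± 0.06), Cenpa (0.43 ± 0.12), Cenpe (0.53 ± 0.14), Kif23 (0.35 ± 0.11), Kif20a (0.23 ± 0.08), Plk1 (0.22 ± 0.06) and Mad2l1 (0.18 ± 0.05) rose by less. With no filter Plk1, Kif20a and Mad2l1 did not pass (adjusted p = 0.0539, 0.0844 and 0.0888). A transcript that is not from RefSeq held 83.5% of the FPKM of Mad2l1 in BM and 87.1% in TUMOR. The RefSeq transcript of Mad2l1 did not rise, with means of 15.5 FPKM in BM, 16.2 in HOMING and 14.3 in TUMOR. Ccnb1 (-0.19 ± 0.08, adjusted p = 0.0376) and Kif11 (-0.17 ± 0.06, adjusted p = 0.0275) were lower in TUMOR, and with scaling by library size neither passed (adjusted p = 0.0659 and 0.0713). Cdk1 (0.00 ± 0.05), Birc5 (0.03 ± 0.07), Top2a (0.03 ± 0.05) and Ube2c (0.01 ± 0.06) did not pass.

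Ccne2 rose by 1.35 ± 0.15 (adjusted p = 5.62e-06), the largest S-phase difference between TUMOR and BM, and passed 2-fold together with Cenpf and Ccnb2, beside 14.2% of all genes. E2f1 stood at 42.4, 38.7 and 40.1 FPKM in TUMOR against 25.8, 26.7 and 26.3 in BM and 31.9, 31.3 and 31.9 in HOMING, with a change against BM of 0.58 ± 0.08 (adjusted p = 2.05e-05). Mcm6 (0.52 ± 0.07, adjusted p = 3.54e-05), Ccne1 (0.31 ± 0.07) and Cdc6 (0.36 ± 0.11) rose as well, while Cdt1 (-0.46 ± 0.06, adjusted p = 1.43e-05), Tyms (-0.30 ± 0.07) and Mcm2 (-0.26 ± 0.07) fell. Ccnd1 rose by 0.33 ± 0.09 (adjusted p = 0.00822) and stayed below its NC level. Of these calls, single libraries ended those of Ccnb1 (without BM 1, BM 3, TUMOR 2 or TUMOR 3; adjusted p = 0.0697 to 0.122), Kif11 (without any except BM 2; 0.0518 to 0.103), Kif20a (without BM 3, TUMOR 2 or TUMOR 3; 0.0584 to 0.0631), and Kif23 and Cdc6 (without BM 3; 0.0553 and 0.0587).

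TUMOR against HOMING differed in both site and tumour cells, and 17 of the 40 genes passed, beside 55.0% of all genes, and 0 of them changed 2-fold, beside 10.8%. This count was 10 without HOMING replicate 1, 11 without HOMING replicate 2 and 9 without TUMOR replicate 1. Of the mitotic genes 10 rose and 1 fell, and of the S-phase genes 3 rose and 2 fell, beside 27.9% and 27.2% of all genes, with medians of 0.08 and -0.03. With scaling by library size 13 genes rose and 2 fell, in place of 13 and 4, and Mcm2 (adjusted p = 0.0787) and Rrm1 (adjusted p = 0.0875) were the calls lost. Ccnb2 (0.96 ± 0.12, adjusted p = 1.68e-05), Cenpf (0.72 ± 0.12, adjusted p = 0.000211), Mki67 (0.28 ± 0.05, adjusted p = 0.000466) and Bub1 (0.32 ± 0.06, adjusted p = 0.000497) were higher in TUMOR, with every TUMOR library above every HOMING library. Bub1 missed the threshold when its most abundant transcript alone was tested (adjusted p = 0.143). Among S-phase genes Mcm6 (0.50 ± 0.07, adjusted p = 7.96e-05), E2f1 (0.34 ± 0.08, adjusted p = 0.00208) and Ccne2 (0.42 ± 0.15, adjusted p = 0.0277) rose, and Rrm1 fell (-0.13 ± 0.05, adjusted p = 0.041). Ccnd1 was lower in TUMOR (-0.43 ± 0.09, adjusted p = 0.0018), as was Foxm1 (-0.17 ± 0.05). Calls lost without single libraries were those of Aurkb, Ccnb1, Top2a, Mad2l1, Foxm1, Ccne2, Mcm2 and Rrm1, with adjusted p of 0.0515 to 0.175 after the removal, and TUMOR replicate 1 was among the libraries concerned for all 8, the others being HOMING replicates 1, 2 and 3 and, for Mcm2 and Rrm1, TUMOR replicate 3.

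**Figure D4:**
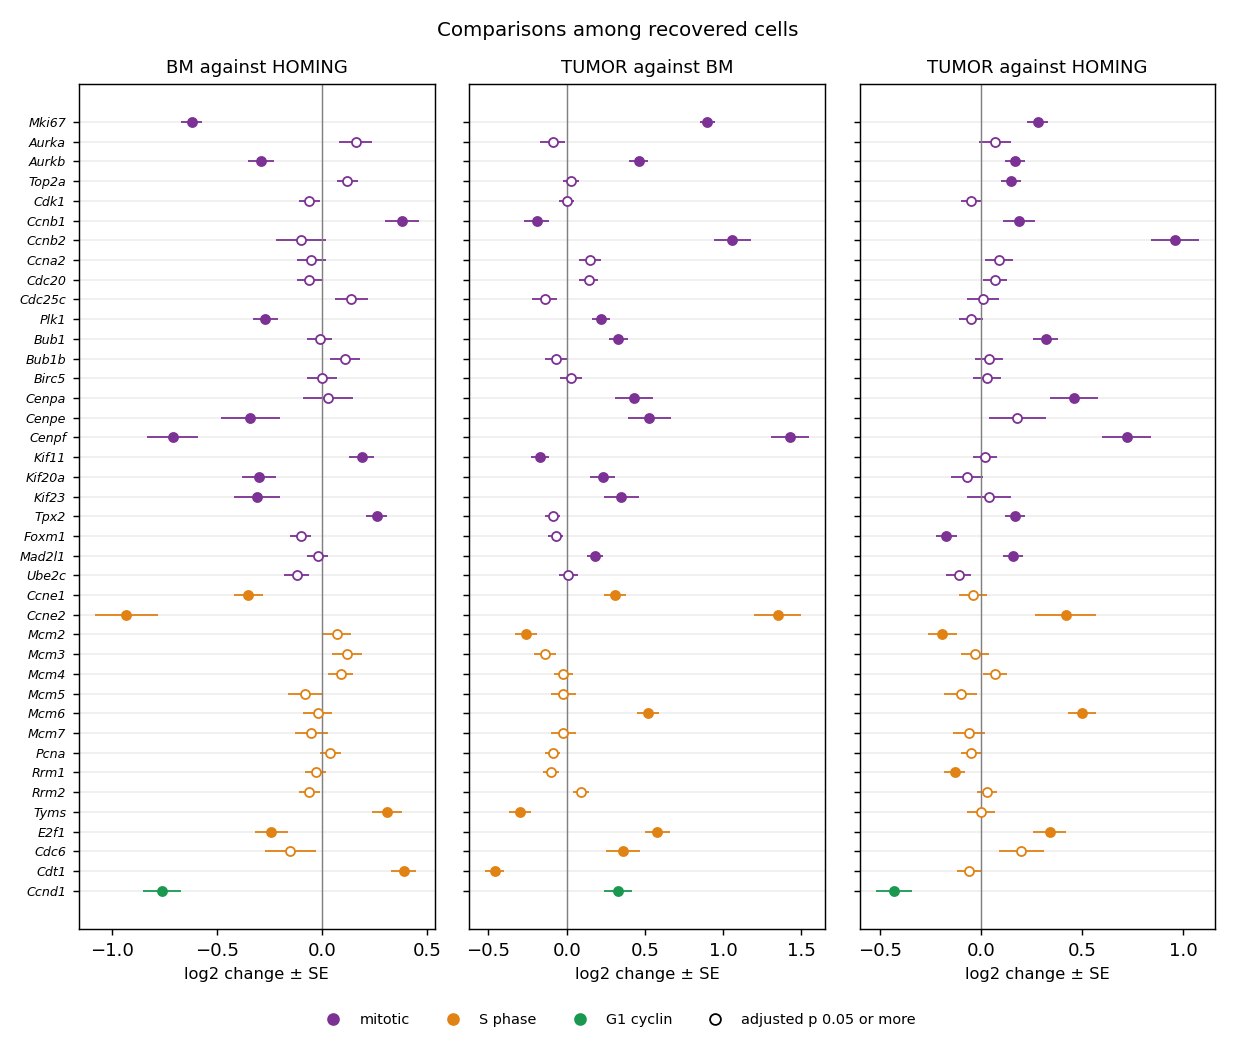
Fitted log2 differences of the 40 cell cycle genes for BM against HOMING, TUMOR against BM and TUMOR against HOMING (horizontal axes, log2, with a different range in each panel; bars are SE), coloured by class; open circles have an adjusted p of 0.05 or more. Mki67 and Cenpf lie to the left in BM against HOMING and to the right in both panels with TUMOR, and most other mitotic genes lie within 0.5 of 0.

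Levels in the recovered groups followed no common order over the 40 genes. For Mki67, Aurkb and Cenpf the order was BM, HOMING, TUMOR from low to high, each step passing its test. The S-phase genes Ccne2 and E2f1 had the same order, also with each step passing. For Ccnb2 and Bub1 the step from BM to HOMING did not pass (adjusted p = 0.466 and 0.874). Cdk1, Birc5, Bub1b, Aurka, Ccna2, Cdc20, Cdc25c and Ube2c passed in 0 of the 3 comparisons among recovered groups, with log2 differences of -0.14 to 0.16. The same was true of Mcm3, Mcm4, Mcm5, Mcm7, Pcna and Rrm2 among the S-phase genes, with differences of -0.14 to 0.12.

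Further genes of the pathway were counted from lists taken by function. Of 49 other mitotic genes, 38 rose and 4 fell in HOMING against NC, 39 and 3 in BM, and 42 and 1 in TUMOR, with medians of 0.41, 0.45 and 0.55. Those with the smallest adjusted p included Espl1, the separase that cuts cohesin (1.10 ± 0.04, 0.88 ± 0.04 and 0.92 ± 0.04), the condensin subunit Ncapd2 (1.09 ± 0.05 in HOMING and 1.33 ± 0.05 in TUMOR) and the kinesin Kif20b (1.53 ± 0.07 in HOMING). In BM they were joined by the condensin subunit Ncapg (0.95 ± 0.05) and the kinase Melk (1.13 ± 0.06), and in TUMOR by Cdca3, a trigger of mitotic entry (0.99 ± 0.04). Of 32 other replication genes, 11 rose and 4 fell in HOMING, 18 and 4 in BM, and 19 and 2 in TUMOR, with medians of 0.09, 0.26 and 0.24. Of all genes tested 35.4%, 34.4% and 37.2% rose and 34.6%, 32.2% and 36.5% fell, so the share of these replication genes that rose in HOMING was near that of all genes. Tk1, the thymidine kinase (1.31 ± 0.06, 0.67 ± 0.06 and 1.25 ± 0.06), and the flap endonuclease Fen1 (1.27 ± 0.06, 0.53 ± 0.06 and 1.09 ± 0.06) led this list, with Gmnn, the inhibitor of Cdt1, in HOMING (0.94 ± 0.08) and TUMOR (1.22 ± 0.08). Among the recovered groups, the other mitotic genes counted 10 higher and 11 lower in BM against HOMING, 21 and 7 in TUMOR against BM, and 22 and 5 in TUMOR against HOMING, and the other replication genes 6 and 8, 15 and 6, and 9 and 2. The shares of all genes, higher and lower, were 29.3% and 28.8%, 35.4% and 34.2%, and 27.9% and 27.2%. The share of these replication genes that was higher in TUMOR than in HOMING was near that of all genes.

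Inhibitors of cyclin-dependent kinases, most of which hold cells in G1, moved in both directions. Of 7 that could be tested (Cdkn1c did not reach the filter), 3 rose and 3 fell in HOMING, 3 rose and 4 fell in BM, and 4 rose and 1 fell in TUMOR, all against NC. Of all genes tested, 35.4%, 34.4% and 37.2% rose and 34.6%, 32.2% and 36.5% fell. With 7 genes, the counts as such did not set this list apart. Cdkn2d, which encodes p19INK4d, stood at 3.59, 4.01 and 3.82 FPKM in NC and 17.4, 16.5 and 17.7 in HOMING. The BM libraries gave 10.7, 10.5 and 11.6, and the TUMOR libraries 28.2, 24.3 and 24.7. There was no overlap between groups, with changes of 2.06 ± 0.08 (adjusted p = 4.58e-10), 1.44 ± 0.08 (adjusted p = 3.77e-08) and 2.63 ± 0.08 (adjusted p = 1.01e-10). Cdkn1a, the p21 gene, stood at 14.1, 13.4 and 25.8 FPKM in NC and 44.4, 42.4 and 43.6 in HOMING. Its BM levels were 28.5, 29.7 and 29.6, and its TUMOR levels 94.4, 76.2 and 80.8. The groups did not overlap, although NC replicate 3 lay close to BM, with changes of 1.17 ± 0.20 (adjusted p = 0.000157), 0.63 ± 0.20 (adjusted p = 0.0127) and 2.11 ± 0.20 (adjusted p = 8.28e-07). So the group with the highest Mki67 and Aurkb, TUMOR, was also the group with the highest Cdkn1a and Cdkn2d. Cdkn2a, the locus of p16INK4a and p19ARF, stood at 224, 203 and 216 FPKM in NC and 128, 125 and 109 in HOMING. BM libraries had 104, 112 and 121, and TUMOR libraries 97.8, 132 and 131. It fell in all 3 recovered groups, with changes of -0.94 ± 0.10 (adjusted p = 3.17e-06), -1.01 ± 0.10 (adjusted p = 2.77e-06) and -0.96 ± 0.10 (adjusted p = 2.26e-06), and gene sums do not separate its 2 products. Cdkn1b, the p27 gene, was higher in TUMOR than in BM (0.97 ± 0.07, adjusted p = 1.28e-07) and HOMING (0.77 ± 0.07, adjusted p = 1.42e-06), and Cdkn2c rose against NC in all 3 groups (0.76 ± 0.10, 0.92 ± 0.10 and 1.08 ± 0.10).

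The other G1 genes, 16 in number, included 8 that rose and 4 that fell in HOMING against NC, 5 and 4 in BM, and 7 and 4 in TUMOR. All-gene shares were 35.4%, 34.4% and 37.2% higher and 34.6%, 32.2% and 36.5% lower, to which the BM counts were near. Among the D-type cyclins related to Ccnd1, Ccnd2 fell in HOMING (-1.35 ± 0.07, adjusted p = 3.44e-09), BM (-0.48 ± 0.07, adjusted p = 5.24e-05) and TUMOR (-0.94 ± 0.07, adjusted p = 7.83e-08). It was higher in BM than in HOMING (0.87 ± 0.07, adjusted p = 3.61e-07), where Ccnd1 was lower. Ccnd3 stood at 41.8, 36.4 and 30.3 FPKM in NC and 68.8, 65.5 and 72.2 in HOMING. Values were 40.03, 42.4 and 39.2 in BM and 88.1, 75.4 and 78.7 in TUMOR. It was lower in BM than in HOMING (-0.73 ± 0.09, adjusted p = 2.45e-05) and higher in TUMOR than in BM (0.95 ± 0.09, adjusted p = 1.75e-06). The repressor E2f8 rose by 1.19 ± 0.06, 0.50 ± 0.06 and 1.13 ± 0.06 against NC, and the pocket protein gene Rbl2, whose product p130 acts in quiescent cells, by 0.67 ± 0.07, 0.57 ± 0.07 and 1.16 ± 0.07.

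**Figure D5:**
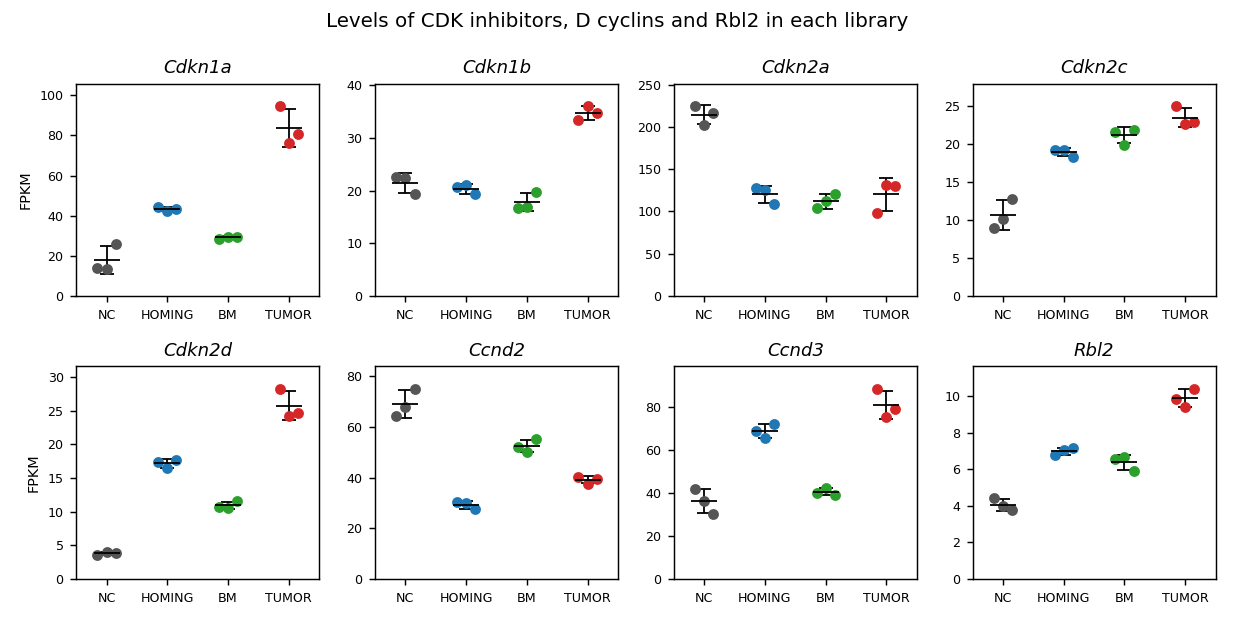
FPKM (vertical axes, linear, from 0) of 5 CDK inhibitor genes, 2 D-type cyclin genes and Rbl2 in the 12 libraries, with the mean and SD of each group of 3. Cdkn1a and Cdkn2d are lowest in NC and highest in TUMOR, Cdkn2a is highest in NC, and Ccnd2 and Ccnd3 order the groups differently.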

How the data were processed

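Per the labels, sorted cells were frozen, RNA was extracted with Trizol, and Illumina TruSeq libraries were made. Per the submitters' processing notes, Bowtie 0.12.2 and genome build mm8 were used, and no source used here names the counting program. The authors deposited 1 table per library with an expected count (estimated reads, not normalized) and an FPKM value (scaled by the authors to transcript length and mapped fragments) for each transcript. Both were summed per gene, with transcripts not listed set to 0. Entrez numbers (19679) were matched to symbols for 19629 genes. No mm8 coordinates are given, and promoter windows come from RefSeq's GRCm38.p6 table.

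Expected counts were rounded, scaled by TMM (factors 0.929 to 1.04) and fitted over all 12 libraries in 4 groups with edgeR 4.0.16 (R 4.3.3), followed by two-sided quasi-likelihood F-tests. The test covered the 12314 genes that reached 1 FPKM in 3 or more libraries, with Benjamini-Hochberg adjustment over all of them in each of the 6 comparisons. A gene passed at an adjusted p under 0.05, and a stricter count also asked for a 2-fold change. The SE is the log2 change divided by the square root of F. Group medians over lists carry no test. The method was tested on simulated data. Ratios of single libraries were taken as log2 of FPKM over the NC mean.

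The 40 genes, the other lists and the tests were chosen with earlier results of these data known. Any of the 40 could be named. Values in each library were given for the 4 mitotic and 4 S-phase genes with the smallest adjusted p among those that passed in a comparison, for Ccnd1, and for the most abundant gene of each class, and up to 3 genes with the smallest adjusted p were named from each other list. The alternatives were DESeq2 1.42.0, limma 3.58.1 on the log2 of the deposited FPKM plus 1 or 0.1, median-ratio or library size scaling, no filter, a filter on NC levels, the compared groups alone, a replicate block, the most abundant transcript, a 2-fold minimum, and leaving out each library.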

Additional observations from a re-analysis of the deposited data

How the results depend on the processing

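Of 240 tests (40 genes in 6 comparisons), 147 passed. Under the alternatives other than a minimum change of 2-fold, 29 of these calls were lost at least once and 1 turned sign. This was Tpx2 in BM against HOMING, at -0.03 (adjusted p = 0.793) for its most abundant transcript, which held 32.0% of its FPKM in HOMING and 26.3% in BM. The cause was not tested. With a minimum change of 2-fold the numbers passing were 4 for HOMING against NC, 2 for BM against NC, 9 for TUMOR against NC, 0 for BM against HOMING, 3 for TUMOR against BM and 0 for TUMOR against HOMING, because the rule is stricter by construction. Fitting the compared groups alone gave 25 for BM against HOMING. Deviations from the group mean had correlations of -0.17 to 0.27 between same-numbered libraries. Between libraries of different number they ran from -0.23 to 0.20. The highest values were among replicates 2: 0.27 for NC with HOMING, 0.165 for BM with HOMING and 0.15 for BM with NC. The labels give no pairing by number, and none was used in the main fit. With a replicate block the numbers passing were 30 for HOMING against NC, 30 for BM against NC, 32 for TUMOR against NC, 16 for BM against HOMING, 21 for TUMOR against BM and 15 for TUMOR against HOMING.

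Medians of the mitotic genes moved to 0.83 for TUMOR against NC with library size scaling and with limma at a pseudocount of 0.1. For BM against HOMING they were -0.07 with DESeq2, median-ratio scaling and the most abundant transcript, -0.09 with library size scaling and limma at 0.1, -0.08 with limma at 1, and -0.02 with no filter. For TUMOR against BM they were 0.18 with library size scaling and limma, and 0.08 with no filter, and for TUMOR against HOMING 0.05 with no filter. Medians of the S-phase genes for BM against HOMING were -0.06 with library size scaling and limma and 0.00 with no filter. For TUMOR against BM they were 0.03 with library size scaling and limma, 0.04 for the most abundant transcript and -0.08 with no filter, and for TUMOR against HOMING -0.04 with DESeq2 and median-ratio scaling and -0.06 with no filter.

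Without 1 library at a time, the numbers passing were 29 to 35 for HOMING against NC, 29 to 34 for BM against NC, 28 to 35 for TUMOR against NC, 13 to 15 for BM against HOMING, 19 to 22 for TUMOR against BM and 9 to 17 for TUMOR against HOMING. In that order of comparisons, mitotic medians ran from 0.59 to 0.73, 0.47 to 0.66, 0.64 to 0.74, -0.07 to -0.02, 0.11 to 0.17 and 0.05 to 0.11. S-phase medians ran from 0.03 to 0.18, 0.08 to 0.17, 0.08 to 0.21, -0.05 to 0.00, -0.04 to 0.00 and -0.05 to 0.00. The lowest count of these genes in a library was 599, and whether depth limited any call was not tested.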

Other observations

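Transcript values, which the gene sums do not show, differed for Mcm7, a subunit of the replicative helicase that passed in 0 of the 6 comparisons. It was chosen after its values were seen, and no test was made. The gene has 2 listed transcripts. The one without a RefSeq accession stood at 21.9, 28.2 and 18.2 FPKM in the NC libraries, at 4.73, 6.03 and 4.49 in HOMING, at 6.82, 7.11 and 8.63 in BM and at 3.89, 4.98 and 3.35 in TUMOR. Every recovered library was below every cultured one, and its share of the gene's FPKM was 17.3% in NC, 3.85% in HOMING, 6.01% in BM and 3.20% in TUMOR. The RefSeq transcript stood at 109 ± 18.7 FPKM in NC, 127 ± 2.13 in HOMING, 118 ± 3.57 in BM and 123 ± 1.33 in TUMOR (SD, n = 3). The 2 transcripts are 2468 and 2396 bases long, and how reads were divided between them rests on the authors' estimate. Of the 40 genes, 19 have more than 1 listed transcript, 74 transcripts in all for the 40.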
